A study of Mus musculus with 18 samples.

Results

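The levels of 9 genes used to define primordial germ cells (PGCs) were followed by RNA-seq in mouse cells driven towards the germline, with and without TET enzymes. The genes were a fixed list of 3 transcription factors (Prdm1, Prdm14 and Tfap2c), 2 RNA-binding proteins (Nanos3 and Dnd1), 2 receptors (Kit and Cxcr4) and the 2 genes behind the sort markers CD61 and SSEA1 (Itgb3 and Fut9). They are 9 of the 25239 genes in the count table, and all 9 were among the 16582 genes that passed the filter on low counts. The wild-type cells were E14Tg2a embryonic stem cells, and the TKO cells were a single clone derived from them in which the open reading frames of Tet1, Tet2 and Tet3 had been cut out with Cas9. Both were turned into epiblast-like cells (EpiLCs) in activin A and Fgf and then aggregated in GK15 medium, either alone or with the cytokines LIF, SCF, EGF and the bone morphogenetic proteins BMP4 and BMP8a. The 9 conditions were EpiLCs of both genotypes, wild-type aggregates without cytokines at days 2 and 6, wild-type PGC-like cells (PGCLCs) made with cytokines at day 6, and TKO aggregates with and without cytokines at days 2 and 6, each with 2 biological replicates. According to the study's legend, the wild-type PGCLCs were sorted as SSEA1+/CD61+ cells and the other aggregates were taken whole. The labels name every one of these samples an aggregate, and the legend is followed here. Every comparison with the wild-type PGCLCs is therefore also one of sorted with unsorted cells, and for Itgb3 and Fut9 the level in that group was in part selected by the sort. Day 2 wild-type aggregates that had cytokines were not analysed here.

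PGCs are the founders of sperm and egg, and in the mouse they arise from a few epiblast cells that receive BMP signals. BLIMP1, the product of Prdm1, represses the somatic programme, PRDM14 helps to restore pluripotency genes and to lower DNA methylation, and AP2γ, the product of Tfap2c, acts downstream of BLIMP1. These factors form the core network of PGC specification. NANOS3 and DND1 bind RNA and are needed for PGC survival. KIT, the receptor for SCF, and CXCR4, the receptor for CXCL12, act in the survival and migration of PGCs, and both are also used by other cell types. CD61, encoded by Itgb3, is integrin β3, and the carbohydrate epitope SSEA1 is made by the fucosyltransferase FUT9, so Itgb3 and Fut9 are the transcripts behind the antibodies that isolate PGCLCs.

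Library totals ran from 11286050 to 41257861 counts. As a check of the genotype, normalised counts in the TKO libraries were 504 to 1937 for Tet1, 31.8 to 405 for Tet2 and 54.6 to 252 for Tet3, against 595 to 12106, 125 to 4812 and 171 to 5849 in the wild-type libraries. In EpiLCs, Tet1 (-2.82 ± 0.33, adjusted p = 0.000216) and Tet3 (-2.64 ± 0.32, adjusted p = 0.00022) were lower in TKO cells and Tet2 did not pass the test (-1.17 ± 0.49, adjusted p = 0.141), these being log2 fold changes ± SE. Tet3 was also lower in TKO cells at day 2 (-3.52 ± 0.32) and day 6 (-4.23 ± 0.33) without cytokines and against sorted PGCLCs (-1.73 ± 0.33), all past the test, while without cytokines Tet1 did not pass at day 2 (-0.30 ± 0.31, adjusted p = 0.491) or day 6 (-0.12 ± 0.31, adjusted p = 0.777). Against sorted PGCLCs Tet1 was lower (-4.20 ± 0.35). Tet2 was lower at day 6 without cytokines (-1.78 ± 0.44) and against PGCLCs (-4.04 ± 0.48), but at day 2 without cytokines it held 355 and 405 in TKO and 287 and 200.4 in wild-type aggregates (0.61 ± 0.44, adjusted p = 0.301). The counts cover whole genes, including exon sequence outside the excised reading frames, so they do not measure the deletion itself. The labels give no sequencing batch, and in whole aggregates a smaller share of germ cells cannot be told apart from less mRNA per cell.

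RefSeq promoter sequence (GRCm38.p6) was at hand for 4 of the 9 genes, namely Prdm1, Nanos3, Kit and Cxcr4, and is shown because TET enzymes act on methylated cytosine, which in mammals lies mainly in CG dinucleotides. Each run is the 250 bases before an annotated start, 5′ to 3′ along the gene, with CG dinucleotides in capitals. The windows are chr10:44458749-44458998 (minus strand) for Prdm1, chr8:84176553-84176802 (minus strand) for Nanos3, chr5:75574737-75574986 (plus strand) for Kit and chr1:128592300-128592549 (minus strand) for Cxcr4, and the start used for Prdm1 lies inside the longest annotated extent of that gene.
Prdm1: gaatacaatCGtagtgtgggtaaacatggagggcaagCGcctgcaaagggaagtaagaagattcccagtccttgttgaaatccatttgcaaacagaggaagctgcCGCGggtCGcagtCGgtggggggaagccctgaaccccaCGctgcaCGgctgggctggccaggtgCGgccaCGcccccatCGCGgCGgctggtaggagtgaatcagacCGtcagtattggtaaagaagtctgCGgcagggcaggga
Nanos3: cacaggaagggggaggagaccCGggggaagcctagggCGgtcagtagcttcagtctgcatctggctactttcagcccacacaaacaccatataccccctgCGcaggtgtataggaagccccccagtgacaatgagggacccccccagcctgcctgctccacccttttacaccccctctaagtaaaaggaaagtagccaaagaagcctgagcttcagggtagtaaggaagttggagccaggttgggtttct
Kit: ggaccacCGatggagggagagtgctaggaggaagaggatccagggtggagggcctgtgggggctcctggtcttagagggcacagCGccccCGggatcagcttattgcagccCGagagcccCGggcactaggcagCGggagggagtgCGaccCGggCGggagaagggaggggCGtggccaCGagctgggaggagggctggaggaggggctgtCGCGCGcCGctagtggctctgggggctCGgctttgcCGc
Cxcr4: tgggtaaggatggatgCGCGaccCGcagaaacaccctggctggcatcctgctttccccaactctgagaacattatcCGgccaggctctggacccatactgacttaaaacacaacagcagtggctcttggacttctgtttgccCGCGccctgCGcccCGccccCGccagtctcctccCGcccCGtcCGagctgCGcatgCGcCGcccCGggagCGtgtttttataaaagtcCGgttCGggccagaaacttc

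The Cxcr4 window held 19 CG dinucleotides, the Kit window 17, the Prdm1 window 15 and the Nanos3 window 3, beside a median of 6 over 32851 promoter windows of the same length. At least as many were found in 19.7%, 23.5%, 27.3% and 71.0% of these windows, in that order, so the Nanos3 window is poorer in CG than most and the others are richer. The AP-2 motif GCCNNNGGC, which reads the same on both strands, matched once in the Nanos3 window (from base 30) and once in the Kit window (from base 117), and 13.7% of all windows hold it. These letters describe the windows only: neither methylation nor factor binding was measured in the data analysed here.

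Among the transcription factors, Prdm1 (chr10:44437174-44528558, like all gene positions here on GRCm38.p6) was present at a low level in wild-type EpiLCs and was nearly gone by day 6 from wild-type aggregates left without cytokines. Its normalised counts (counts divided by DESeq2 size factors, given here for replicates 1 and 2) were 73.9 and 53.9 in wild-type EpiLCs, 40.9 and 32.6 at day 2 without cytokines and 4.99 and 1.158 at day 6 without cytokines. Sorted wild-type PGCLCs held 1900 and 1755. No library of any other condition came within a factor of 2 of these values. TKO EpiLCs held 58.5 and 106, overlapping the wild-type EpiLCs. TKO aggregates held 611 and 381 at day 2 without cytokines, 362 and 276 at day 2 with cytokines, 422 and 483 at day 6 without and 111 and 208 at day 6 with cytokines. Prdm1 was thus lowest, among the TKO aggregates, in those that had cytokines until day 6.

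Prdm14 (chr1:13113428-13127163) was close to absent from wild-type cells outside the PGCLC sort. Its normalised counts were 3.21 and 0.556 in wild-type EpiLCs, 2.92 and 6.99 at day 2 and 1.81 and 1.158 at day 6 without cytokines, against 1295 and 1046 in sorted PGCLCs. The 2 wild-type EpiLC libraries held 3 raw counts of Prdm14 together, so the ratio of PGCLCs to EpiLCs was 941 with a 95% interval of 322 to 4570 that covers counting error only. TKO EpiLCs already held 18.9 and 70.4. TKO aggregates held 788 and 740.1 at day 2 without cytokines, 817 and 962 at day 2 with cytokines, 504 and 602 at day 6 without cytokines and 1080 and 1235 at day 6 with cytokines. The last pair overlapped the sorted wild-type PGCLCs, which no other member did in any TKO condition.

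Tfap2c (chr2:172545678-172558622) split the libraries into a low and a high set with no library in between. The low set held wild-type EpiLCs (19.3 and 21.1), wild-type aggregates without cytokines at day 2 (47.8 and 45.1) and day 6 (29.0 and 57.9), and TKO EpiLCs (45.6 and 57.2). The high set held the sorted PGCLCs (4013 and 2851) and all TKO aggregates, with 1789 and 1544 at day 2 without cytokines, 2007 and 2230 at day 2 with, 1653 and 1774 at day 6 without and 1424 and 1643 at day 6 with cytokines. By group means, the lowest of the high set (TKO at day 6 with cytokines) was 29.8-fold above the highest of the low set (TKO EpiLCs).

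Of the RNA-binding proteins, Nanos3 (chr8:84173733-84176552) was scarce in EpiLCs and early wild-type aggregates. It held 3.21 and 5.003 normalised counts in wild-type EpiLCs and 4.87 and 2.33 at day 2 without cytokines, then 56.7 and 35.9 at day 6 without cytokines and 239 and 142 in sorted PGCLCs. Among the transcription factors and RNA-binding proteins it was the only one that rose from day 2 to day 6 in wild-type aggregates without cytokines. TKO EpiLCs held 11.9 and 15.4, and TKO aggregates held 55.01 and 45.7 at day 2 without cytokines, 88.4 and 65.8 at day 2 with, 31.2 and 22.7 at day 6 without and 35.3 and 31.0 at day 6 with cytokines. In TKO aggregates the day 2 libraries were all above the day 6 libraries. The longer GENCODE model of this gene reaches past the window printed above and spans the microRNA genes Mir181c and Mir181d, whose own rows in the table held at most 25 counts in any library.

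Dnd1 (chr18:36763671-36766214) was already transcribed in EpiLCs of both genotypes, with 193 and 198 in wild-type and 109 and 304 in TKO cells. In wild-type cells without cytokines it held 117 and 136 at day 2 and 15.4 and 16.2 at day 6, and sorted PGCLCs held 862 and 734. TKO aggregates held 184 and 180.2 at day 2 without cytokines, 256 and 100.5 at day 2 with, 87.2 and 94.7 at day 6 without and 151 and 110.2 at day 6 with cytokines. No TKO aggregate exceeded the higher TKO EpiLC library, in contrast to the 3 transcription factors, each of which had its lowest TKO aggregate library above its highest TKO EpiLC library. The end of Dnd1 overlaps that of Wdr55 on the other strand, and the counting did not use strand. Wdr55 held 263 and 449 in wild-type day 6 aggregates without cytokines, where Dnd1 held 15.4 and 16.2.

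Kit (chr5:75574987-75656722) held 116 and 176 normalised counts in wild-type EpiLCs, 519.6 and 718 at day 2 without cytokines, 1253 and 521 at day 6 without cytokines and 7481 and 6649 in sorted PGCLCs. Kit was therefore not restricted to germ cell conditions in wild-type cells, and its replicates at day 6 without cytokines lay far apart, one at the day 2 level and one above it. TKO EpiLCs held 68.5 and 211, and TKO aggregates held 1027 and 629.6 at day 2 without cytokines, 800.1 and 1746 at day 2 with, 1766 and 1599 at day 6 without and 2113 and 3368 at day 6 with cytokines. All TKO libraries lay below the sorted PGCLCs.

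Cxcr4 (chr1:128588199-128592299) had an order of levels unlike that of the other members. It was highest in wild-type day 6 aggregates without cytokines, with 2041 and 1803 normalised counts, and sorted PGCLCs held 211 and 166. Wild-type EpiLCs held 11.2 and 5.56 and wild-type day 2 aggregates 150.1 and 67.6. TKO cells held 2.98 and 4.40 as EpiLCs, 19.7 and 12.01 at day 2 without cytokines, 18.1 and 18.6 at day 2 with, 82.9 and 50.5 at day 6 without and 33.6 and 43.6 at day 6 with cytokines. Every TKO library lay below both libraries of the sorted wild-type PGCLCs and below both of wild-type day 6 aggregates. The 8 neural markers fixed for the check of cell types (such as Sox1, Pax6, Tubb3 and Neurog2) were, like Cxcr4, all lower in PGCLCs than in wild-type day 6 aggregates without cytokines. Their summed normalised counts were 685 to 712 in wild-type EpiLCs, 31729 to 36811 in the wild-type day 6 aggregates without cytokines, 4193 to 5319 at day 2 and 537 to 599 in sorted PGCLCs, which hold more Cxcr4 than the day 2 aggregates and EpiLCs. The 8 endothelial and blood markers summed to 112 to 473 in the same day 6 aggregates. Their sums were 157 to 190 in wild-type EpiLCs, 176 to 492 in wild-type day 2 aggregates and 140 to 252 in sorted PGCLCs. The part of these cell types in the Cxcr4 level was not tested.

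Itgb3 (chr11:104608000-104670476) held 8.03 and 7.78 normalised counts in wild-type EpiLCs, 40.9 and 45.8 at day 2 and 44.9 and 6.95 at day 6 without cytokines, and 537 and 443 in PGCLCs sorted for its product. The day 6 pair without cytokines had one library at the day 2 level and one near the EpiLC level. TKO EpiLCs held 15.9 and 20.9, and TKO aggregates held 211 and 136 at day 2 without cytokines, 144 and 206 at day 2 with, 311 and 290.3 at day 6 without and 321 and 393 at day 6 with cytokines. All TKO aggregates were above all wild-type libraries outside the sort.

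Fut9 (chr4:25609333-25800003) varied least: it held 143 and 158 in wild-type EpiLCs, 206 and 207 at day 2 and 144 and 111 at day 6 without cytokines, and 740.5 and 649 in sorted PGCLCs. TKO EpiLCs held 97.2 and 211, and TKO aggregates held 403 and 359 at day 2 without cytokines, 171 and 344 at day 2 with, 466 and 314 at day 6 without and 141 and 424 at day 6 with cytokines. Of the day 6 pair with cytokines, the lower library lay close to wild-type EpiLCs and the higher among the other TKO aggregates. In the order of mean levels, the sorted PGCLCs were first for every member except Cxcr4, and only for Prdm14 did the second condition overlap the first. Further down, neighbouring conditions overlapped for at least 1 pair in each gene, and for Fut9 every neighbouring pair below the PGCLCs overlapped. TKO aggregates took the ranks just below the PGCLCs for the 3 transcription factors, Itgb3 and Fut9, while for Dnd1 EpiLCs of both genotypes came next, and for Nanos3 and Kit wild-type day 6 aggregates without cytokines stood among the TKO aggregates.

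**Figure D1:**
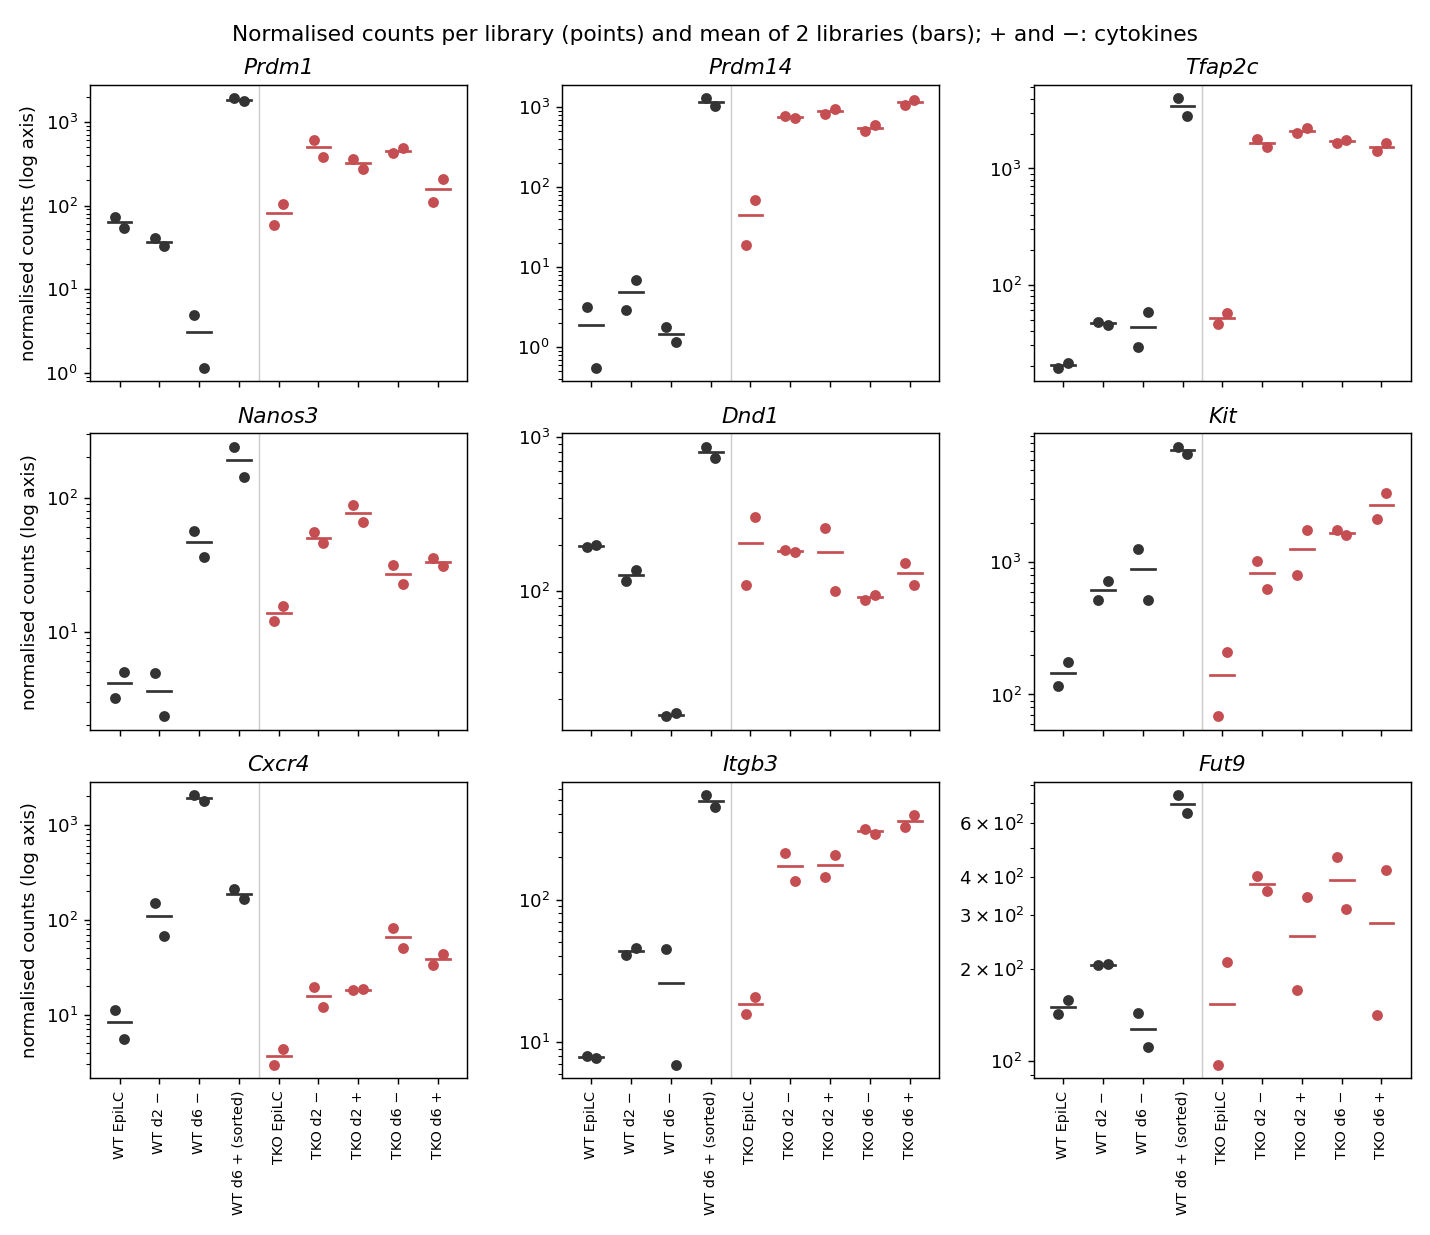
Normalised counts of each gene (log axis) in the 18 libraries, with wild-type conditions in black on the left and TKO conditions in red on the right of each panel, points for libraries and bars for the mean of 2. The sorted wild-type PGCLCs hold the top bar in every panel except Cxcr4, where wild-type day 6 aggregates without cytokines (2041 and 1803) are highest, and the TKO aggregates lie between these extremes for most genes.

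The first comparison asks how the 9 genes move as wild-type EpiLCs become PGCLCs. All 9 rose, where 22.4% of all genes tested passed as higher and 18.2% as lower (edgeR's quasi-likelihood test, with 0.05 as the limit of the adjusted p). The log2 fold changes ± SE of the transcription factors were 9.76 ± 0.62 for Prdm14, 7.42 ± 0.32 for Tfap2c and 4.91 ± 0.39 for Prdm1. Nanos3 rose by 5.43 ± 0.50 and Dnd1, already present in EpiLCs, by 2.07 ± 0.41. The receptors rose by 5.61 ± 0.58 (Kit) and 4.70 ± 0.44 (Cxcr4), and the sort marker genes by 5.98 ± 0.57 (Itgb3) and 2.24 ± 0.45 (Fut9). The largest of the 9 adjusted p-values was 0.00118, for Fut9, and all 9 passed when any of the 4 libraries was left out. Since the PGCLCs were sorted, the levels of Itgb3 and Fut9 were selected for in this comparison. Of 13 other early PGC genes, such as Dppa3, Nanog, Ifitm3 and Klf2, 10 were higher and 1 was lower, with a median log2 fold change of 4.19 beside 0.07 over all genes. In the same comparison 5 of 6 trophoblast markers tested were higher (median 3.07), as were 3 of 5 endoderm markers (median 2.69). The trophoblast marker with the most counts in PGCLCs was Eomes (89.96 and 92.3 in EpiLCs, 457.5 and 460.1 in PGCLCs). The part of these cell types was not tested.

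Against wild-type aggregates of the same day that had no cytokines, 8 of the 9 genes were higher in PGCLCs and Cxcr4 was lower. Of all genes, 29.6% were higher and 28.6% lower in this comparison. Prdm14 (9.44 ± 0.58) and Prdm1 (8.91 ± 0.51) had the largest log2 fold changes, followed by Tfap2c (6.43 ± 0.29) and Dnd1 (5.69 ± 0.51). In the aggregates without cytokines Prdm14 rested on 4 and 1 raw counts and Prdm1 on 11 and 1, so the size of these 2 differences is uncertain. Itgb3 (4.13 ± 0.48), Kit (3.03 ± 0.51), Fut9 (2.48 ± 0.45) and Nanos3 (2.06 ± 0.39) followed, and Cxcr4 was 9.93-fold lower (-3.31 ± 0.34, adjusted p = 8.23e-07). All 9 calls held when any of the 4 libraries was left out. The same 13 early PGC genes were all higher, with a median log2 fold change of 8.71 beside 0.01 over all genes. Markers of other cell types moved in both directions: all 8 neural markers were lower (median -6.41), 4 of 6 trophoblast markers tested were higher (median 4.87), and 3 of 5 neural crest and melanocyte markers tested were higher (median 1.97). Their part in the differences was not tested.

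Wild-type aggregates left without cytokines show what the same genes do when PGC induction is not given. From EpiLCs to day 2, Cxcr4 (3.90 ± 0.45, adjusted p = 1.65e-05), Itgb3 (2.49 ± 0.58, adjusted p = 0.00416), Kit (2.10 ± 0.51, adjusted p = 0.00527) and Tfap2c (1.22 ± 0.32, adjusted p = 0.00837) rose, where 18.6% of all genes were higher and 15.7% lower. The other 5 did not pass, with log2 fold changes of -0.72 ± 0.39 for Prdm1, 1.97 ± 1.03 for Prdm14, -0.28 ± 0.62 for Nanos3, -0.58 ± 0.41 for Dnd1 and 0.50 ± 0.44 for Fut9. Without replicate 1 of wild-type EpiLCs Kit was 1.85 (adjusted p = 0.0624), and without replicate 2 Tfap2c was 1.33 (adjusted p = 0.0599) and Itgb3 2.49 (adjusted p = 0.0557). At day 2 the neural markers summed to 4193 to 5319 against 685 to 712 in EpiLCs (5 of 8 higher), 3 of 5 endoderm markers tested were higher, and the trophoblast markers summed to 1715 to 1934 against 376 to 388 (1 of 6 tested higher), most of it Krt8 (1558 and 1730). Their part in the levels was not tested. From day 2 to day 6, Cxcr4 (4.11 ± 0.35) and Nanos3 (3.66 ± 0.51) rose and Prdm1 (-3.28 ± 0.53) and Dnd1 (-3.05 ± 0.48) fell, beside 20.5% of all genes higher and 19% lower. These 4 had adjusted p-values of 5.88e-07 to 0.000191. Itgb3 (-0.64 ± 0.48, adjusted p = 0.308), Kit (0.48 ± 0.48, adjusted p = 0.456) and Tfap2c (-0.23 ± 0.29, adjusted p = 0.564) did not pass with all libraries. Their values depended on the day 6 library kept. Without replicate 1 of the day 6 aggregates Itgb3 was -2.67, Kit -0.30 and Tfap2c 0.27, and without replicate 2 Tfap2c was -0.73. Over the same days 9 of 13 early PGC genes fell and none rose (median -3.20), 7 of 8 neural markers rose (median 3.84), and 3 of 5 endoderm and 3 of 6 trophoblast markers tested fell, and whether these cell types have a part in the changes was not tested.

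The next question is whether loss of the TET enzymes alters these genes before and after aggregation, in cells that never received the PGC cytokines. Since the TKO cells are 1 clone, an effect of the clone and an effect of TET loss cannot be told apart. In EpiLCs only Prdm14 and Tfap2c were higher in TKO cells, beside 7.57% of all genes higher and 3.18% lower. Prdm14 was higher by 5.02 ± 0.74, adjusted p = 0.000953, and from the raw counts (83 in TKO against 3 in wild-type EpiLCs) the ratio was 34.9 with a 95% counting interval of 11.5 to 173. Tfap2c was 2.54-fold higher (1.34 ± 0.32, adjusted p = 0.0165). It no longer passed without wild-type replicate 1 (1.29, adjusted p = 0.0943), wild-type replicate 2 (1.46, adjusted p = 0.12) or TKO replicate 2 (1.17, adjusted p = 0.108). Nanos3 (1.62 ± 0.53, adjusted p = 0.0648), Itgb3 (1.23 ± 0.64, adjusted p = 0.245) and Cxcr4 (-0.96 ± 0.70, adjusted p = 0.416) did not pass. Prdm1, Dnd1, Kit and Fut9 had log2 fold changes of -0.07 to 0.42. Markers of other cell types also differed: the 7 trophoblast markers summed to 376 to 388 normalised counts in wild-type and 1338 to 1385 in TKO EpiLCs, with 3 of the 6 tested higher, and the 6 endoderm markers to 13.3 to 20.9 and 91.3 to 145.8, with 3 of the 5 tested higher. The trophoblast sum in TKO EpiLCs was mostly Eomes (696 and 606) and Krt8 (469 and 633), while Elf5 held 4.96 and 0. Their part in the Tfap2c and Prdm14 levels was not tested.

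At day 2 without cytokines the TKO aggregates held more mRNA of the 3 transcription factors, Nanos3 and Itgb3, and less of Cxcr4. Of all genes, 18% were higher and 14.8% lower. Prdm14 was higher by 7.15 ± 0.51 on the log2 scale, Tfap2c by 5.13 ± 0.28, Nanos3 by 3.77 ± 0.51 and Prdm1 by 3.73 ± 0.38, which is 35.1-fold for Tfap2c and 13.2-fold for Prdm1. Itgb3 was higher by 1.96 ± 0.46, adjusted p = 0.00437, and without replicate 1 of the TKO aggregates this was 1.59 (adjusted p = 0.0554). Cxcr4 was lower by 6.82-fold (-2.77 ± 0.41, adjusted p = 0.000122). Dnd1 (0.49 ± 0.41, adjusted p = 0.385), Kit (0.39 ± 0.48, adjusted p = 0.565) and Fut9 (0.85 ± 0.43, adjusted p = 0.148) did not pass. When only the libraries compared were fitted, Fut9 passed (0.88, adjusted p = 0.00289), where 6771 of all genes did. Early PGC genes outside the list gave 10 of 13 higher and 1 lower, with a median of 2.45 beside 0.00 over all genes. The neural markers summed to 4193 to 5319 in wild-type and 1470 to 1856 in TKO aggregates (5 of 8 lower), the trophoblast markers to 1715 to 1934 and 1593 to 2483 (4 of 6 tested higher), and the mesoderm markers to 269 to 442.5 and 1195 to 2111 (1 of 5 tested higher), the last mostly Col1a1 (1087 and 1928 in TKO). The part of these cell types was not tested.

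By day 6 without cytokines 7 of the 9 genes differed between the genotypes. Prdm14 (8.33 ± 0.58), Prdm1 (6.88 ± 0.49), Tfap2c (5.41 ± 0.28), Itgb3 (3.40 ± 0.47), Dnd1 (2.54 ± 0.49) and Fut9 (1.63 ± 0.45) were higher in TKO aggregates, in a comparison in which 28.5% of all genes were higher and 26.9% lower. The sizes for Prdm14 and Prdm1 are uncertain, since the wild-type aggregates held 4 and 1 and 11 and 1 raw counts of them. Cxcr4 was 28.2-fold lower (-4.82 ± 0.37, adjusted p = 6.53e-08). Nanos3 (-0.77 ± 0.41, adjusted p = 0.122) and Kit (0.94 ± 0.48, adjusted p = 0.108) did not pass. Kit was 1.71 (adjusted p = 0.0126) without wild-type replicate 1. Fut9 was 1.31 (adjusted p = 0.0584) without TKO replicate 1. Early PGC genes outside the list were higher in 13 of 13 cases (median 7.51 beside 0.01). Markers of other cell types moved too: the 8 neural markers summed to 31729 to 36811 in wild-type and 1825 to 2437 in TKO aggregates, and the 7 trophoblast markers, a lineage that also uses Tfap2c, to 161 to 359 and 2080 to 2399. Of the trophoblast markers Krt8 was highest (1218 and 1468 in TKO), while Cdx2 held 23.7 and 10.1 and Elf5 2.15 and 1.26. The part of these cell types in the differences was not tested.

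**Figure D2:**
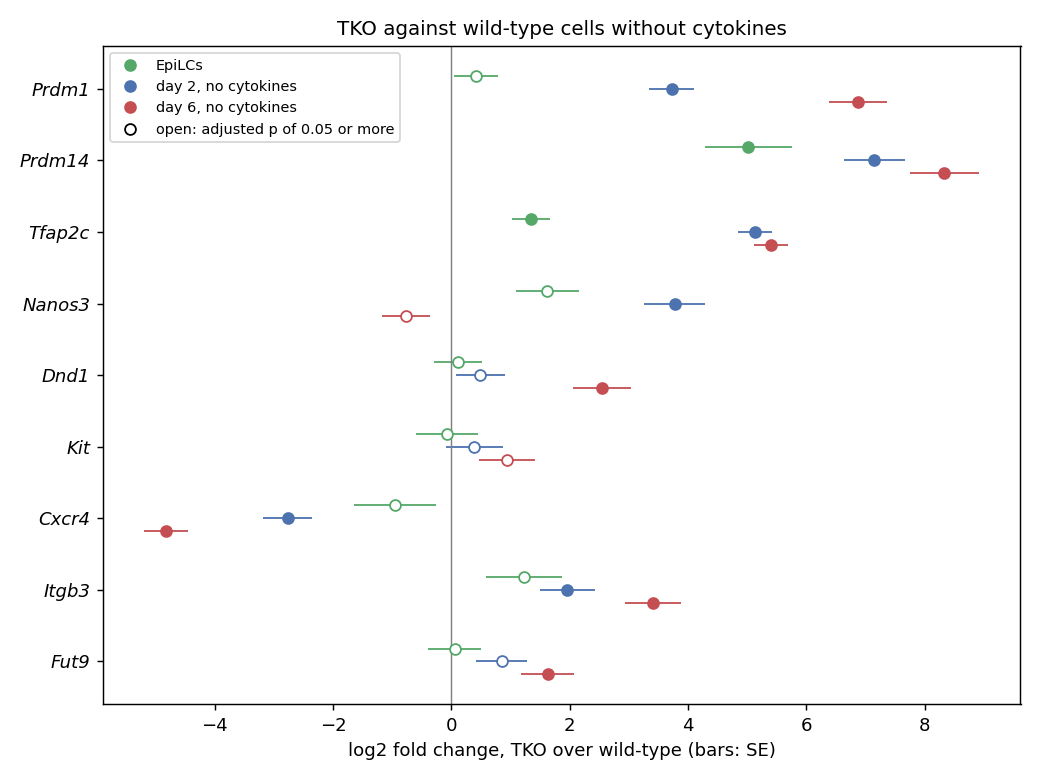
Log2 fold change of TKO over wild-type cells without cytokines for each gene, in EpiLCs and in aggregates at days 2 and 6, with SE as bars and open circles where the adjusted p was 0.05 or more. Prdm1, Prdm14, Tfap2c and Itgb3 lie to the right at both days and Cxcr4 to the left, reaching -4.82 at day 6.

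The change from EpiLCs to day 2 without cytokines was itself compared between the genotypes with an interaction term. It was larger in TKO cells for Tfap2c (difference of log2 fold changes 3.79 ± 0.42, adjusted p = 5.99e-05) and Prdm1 (3.31 ± 0.52, adjusted p = 0.00085), beside 6.08% of all genes with a positive and 6.19% with a negative interaction. In TKO cells Tfap2c rose by 5.01 ± 0.28 and Prdm1 by 2.59 ± 0.35, against 1.22 ± 0.32 and -0.72 ± 0.39 in wild-type cells. Nanos3 (2.15 ± 0.77, adjusted p = 0.083), Prdm14 (2.13 ± 1.47, adjusted p = 0.395) and Cxcr4 (-1.81 ± 0.88, adjusted p = 0.208) did not pass. For Prdm14 the SE was the largest of the 9, with 3 raw counts in the wild-type EpiLCs. For this interaction 8 of 13 early PGC genes were positive (median 1.92), and 2 of 5 endoderm markers tested (median -3.80) and 2 of 8 neural markers (median -1.08) were negative, and their part in it was not tested.

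Within TKO cells, the step from EpiLCs to day 2 raised 7 members both with and without cytokines. These were Tfap2c, Prdm14, Itgb3, Kit, Nanos3, Cxcr4 and Prdm1. With cytokines their log2 fold changes ran from 1.96 ± 0.35 (Prdm1) to 5.37 ± 0.28 (Tfap2c), beside 7.88% of all genes higher and 6.39% lower. Without cytokines they ran from 1.87 ± 0.44 (Nanos3) to 5.01 ± 0.28 (Tfap2c), beside 10.1% higher and 8.52% lower. Both comparisons use the same EpiLC libraries. Dnd1 (-0.20 ± 0.41 with and -0.19 ± 0.41 without cytokines) and Fut9 (0.74 ± 0.45 and 1.29 ± 0.44, adjusted p = 0.0543) did not pass. Without cytokines Fut9 did pass with DESeq2 (adjusted p = 0.0226), with no filter on low counts (0.00888) and with a replicate block (0.0457). It also passed with library size alone (0.00694) or without Rn45s (0.0353), and when only the libraries compared were fitted (0.0343). Cxcr4 rested on 7 raw counts in TKO EpiLCs and passed only with all libraries. Leaving out any 1 library gave 2.03 to 2.59, with adjusted p-values of 0.0757 to 0.127, in the comparison with cytokines, and 1.66 to 2.39, with adjusted p-values of 0.0555 to 0.225, in that without. Without cytokines Nanos3 was 1.68 (adjusted p = 0.0637) without TKO EpiLC replicate 1 and 1.71 (adjusted p = 0.0733) without day 2 replicate 1, and Fut9 was 1.96 (adjusted p = 0.0436) without TKO EpiLC replicate 2. Trophoblast markers summed to 1338 to 1385 in TKO EpiLCs and 4046 to 4447 at day 2 with cytokines (3 of 6 tested higher, 1 lower). Without cytokines the neural markers summed to 1470 to 1856 against 444 to 451 in EpiLCs (4 of 8 higher) and the mesoderm markers to 1195 to 2111 against 62.7 to 91.3 (2 of 5 tested higher). Their part in the rise was not tested.

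From day 2 to day 6 at most 1 of these genes passed in the TKO aggregates when all 18 libraries were fitted with the filter on low counts. With only the libraries compared, 2 passed with cytokines and 5 without (1280 and 1148 of all genes). With no filter, 2 passed with cytokines and 1 without (1359 and 230 of all genes). With cytokines none of the 9 passed in edgeR's test, where 4.28% of all genes were higher and 1.72% lower, or in DESeq2's. The log2 fold changes ran from -1.22 ± 0.41 for Nanos3 to 1.11 ± 0.48 for Kit. Without cytokines Cxcr4 rose (2.06 ± 0.42, adjusted p = 0.0409), beside 0.422% of all genes higher and 0.0543% lower. This call was lost without any 1 of the 4 libraries, the log2 fold change then being 1.64 to 2.48, with adjusted p-values of 0.0546 to 0.595. Dnd1 (-0.99 ± 0.42), Nanos3 (-0.89 ± 0.41), Prdm14 (-0.46 ± 0.34), Kit (1.02 ± 0.48) and Itgb3 (0.80 ± 0.43) did not pass. When only the libraries compared were fitted, Dnd1 (adjusted p = 0.0108), Prdm14 (0.0426), Kit (0.00399) and Itgb3 (0.0328) passed too. The endoderm markers summed to 138 to 140.5 at day 2 and 445 to 538 at day 6 with cytokines. Without cytokines they summed to 163 to 202 and 327 to 463, and 2 of 5 tested were higher in each. With cytokines 2 of 8 neural markers were higher, and of 13 early PGC genes 1 was higher and 3 lower. Their part in the changes was not tested.

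The response to cytokines was then examined. In TKO aggregates at day 2 none of the 9 genes passed in the comparison of cytokines with none, by edgeR or DESeq2. Of all genes, 2.05% were higher and 2.47% lower. The range of 2 SE on either side of the log2 fold change was -0.43 to 0.91 for Prdm14, -0.09 to 0.81 for Tfap2c, -1.28 to 0.03 for Prdm1 and -0.32 to 1.59 for Kit, which leaves room for changes of these sizes. Id1, a direct target of BMP signals, rose in the same libraries (3.06 ± 0.64, adjusted p = 0.0164) from 199 and 314 to 1947 and 2266 normalised counts. At day 6 Prdm1 alone passed and was 2.78-fold lower with cytokines (-1.48 ± 0.34, adjusted p = 0.0219), beside 2.56% of all genes higher and 3.05% lower. This was -1.56 (adjusted p = 0.0916) and -1.39 (adjusted p = 0.126) without each library that had no cytokines and -1.11 (adjusted p = 0.2) without replicate 1 of those with cytokines. Prdm14 was 2.12-fold higher with cytokines and missed the threshold (1.08 ± 0.34, adjusted p = 0.0733), while DESeq2 gave an adjusted p of 0.0357. The other 7 ran from -0.77 ± 0.38 for Cxcr4 to 0.72 ± 0.47 for Kit, and Id1 rose again (2.76 ± 0.63, adjusted p = 0.0218). The share of counts from the rRNA gene Rn45s moved with cytokines in TKO aggregates: it was 16.2% to 20.9% in libraries without and 31.7% to 37.3% in libraries with them, and was 40.7% to 47.6% in wild-type EpiLCs. With libraries scaled by their total without Rn45s, the difference of Prdm1 at day 6 was -1.60 (adjusted p = 0.0166). At day 2 the neural markers summed to 1470 to 1856 without and 553 to 725 with cytokines (3 of 8 lower). The trophoblast markers then summed to 1593 to 2483 and 4046 to 4447 (0 of 6 tested passed). At day 6 the neural sums were 1825 to 2437 and 1026 to 1856 (3 of 8 lower). The mesoderm sums were 1630 to 2279 and 207 to 260 (1 of 5 tested lower). Of 13 early PGC genes 1 was higher and 2 lower at day 6. Their part in the changes was not tested.

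The effect of cytokines at day 6 differed between wild-type and TKO cells for all 9 genes. The interaction (effect in wild-type minus effect in TKO cells) was positive for 8 genes and negative for Cxcr4, beside 22% of all genes with a positive and 21% with a negative interaction. It was 10.39 ± 0.61 for Prdm1, 8.36 ± 0.69 for Prdm14, 6.57 ± 0.36 for Tfap2c and 5.16 ± 0.65 for Dnd1 on the log2 scale. The sizes for Prdm1 and Prdm14 are uncertain, since wild-type aggregates without cytokines held 11 and 1 and 4 and 1 raw counts of them. Itgb3 (3.86 ± 0.63), Fut9 (2.92 ± 0.62), Kit (2.31 ± 0.67, adjusted p = 0.0124), Nanos3 (1.76 ± 0.57, adjusted p = 0.0224) and Cxcr4 (-2.55 ± 0.50) had the smaller values. Nanos3 was 1.34 (adjusted p = 0.122) without replicate 1 of the sorted PGCLCs, 1.51 (adjusted p = 0.0996) without replicate 1 of the TKO aggregates that had no cytokines and 1.67 (adjusted p = 0.0665) without replicate 2 of those with cytokines, while Kit was 2.02 (adjusted p = 0.058) without replicate 1 of the latter. In wild-type cells this effect compares sorted with whole aggregates, and in TKO cells whole with whole aggregates, so the sort and the genotype cannot be told apart in the interaction. Other lists moved in the same interaction: 13 of 13 early PGC genes were positive, 7 of 8 neural markers were negative (median -5.07), and 4 of 6 trophoblast (median 5.06), 3 of 5 endoderm and 3 of 5 mesoderm markers tested were positive. Their part in it was not tested.

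**Figure D3:**
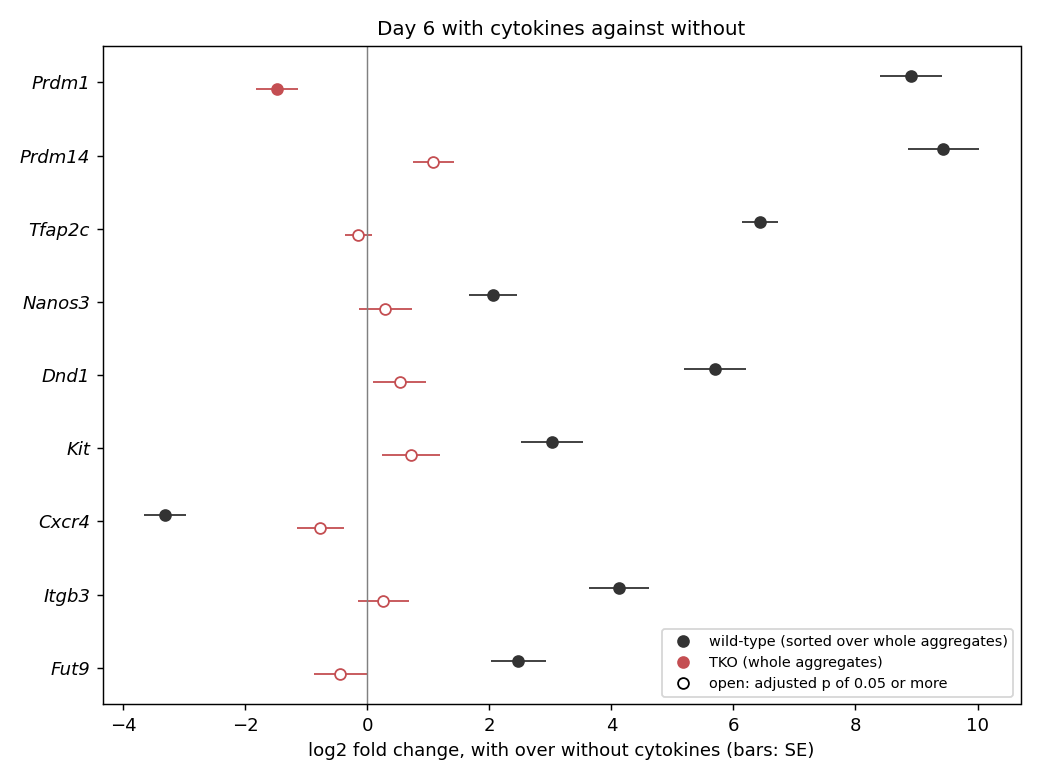
Log2 fold change of each gene at day 6 with over without cytokines, in wild-type cells (black, sorted PGCLCs over whole aggregates) and TKO aggregates (red), with SE as bars and open circles where the adjusted p was 0.05 or more. Wild-type values reach 9.44 for Prdm14, while the TKO values lie between -1.48 and 1.08.

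The TKO aggregates were finally set against the sorted wild-type PGCLCs. The 4 comparisons share the same 2 PGCLC libraries and are given side by side. At day 6 with cytokines, the matched condition apart from the sort, Prdm1 (-3.51 ± 0.36), Dnd1 (-2.62 ± 0.43), Nanos3 (-2.53 ± 0.41), Cxcr4 (-2.27 ± 0.37), Fut9 (-1.29 ± 0.43, adjusted p = 0.0499) and Tfap2c (-1.17 ± 0.23, adjusted p = 0.00255) were lower in TKO aggregates and none was higher, beside 11.3% of all genes higher and 7.53% lower. Prdm1 stood at 8.71% of its mean in PGCLCs, Dnd1 at 16.4%, Nanos3 at 17.4%, Cxcr4 at 20.5% and Tfap2c at 44.7%. Prdm14 stood at 98.9% (-0.02 ± 0.33, adjusted p = 0.981), Itgb3 at 72.8% (-0.46 ± 0.42, adjusted p = 0.479) and Kit at 38.8% (-1.37 ± 0.48, adjusted p = 0.057), and these 3 did not pass. Kit did pass with no filter on low counts (adjusted p = 0.00308), with library size alone (0.0437) and when only the libraries compared were fitted (0.00206). Of the 13 other early PGC genes, 0 were higher and 4 lower (median -0.51). The level of Prdm14 thus overlapped that of sorted cells in the aggregates that held the least Prdm1 of all TKO aggregates. Fut9 passed by a narrow margin and not without either PGCLC library (-1.20, adjusted p = 0.199 without the first and -1.39, adjusted p = 0.114 without the second) or TKO replicate 1 (-0.73, adjusted p = 0.339), and Tfap2c was -0.90 (adjusted p = 0.0548) without PGCLC replicate 1. The 7 trophoblast markers summed to 785 to 884 normalised counts in PGCLCs and 1922 to 1979 in these TKO aggregates (2 of 6 tested higher), and the 6 endoderm markers to 75.1 to 118 and 445 to 538 (3 of 5 tested higher). Whether they bear on the differences was not tested.

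The other TKO conditions differ from the PGCLCs in time, in cytokines or in both. At day 2 with cytokines 8 genes were lower and Prdm14 (-0.41 ± 0.33, adjusted p = 0.418) did not pass, beside 10.4% of all genes higher and 9.49% lower. At day 2 without cytokines 7 were lower, and Prdm14 (-0.64 ± 0.33, adjusted p = 0.18) and Fut9 (-0.89 ± 0.43, adjusted p = 0.146) did not pass, beside 13% higher and 11.1% lower. At day 6 without cytokines 7 were lower, and Itgb3 (-0.72 ± 0.42, adjusted p = 0.224) and Fut9 (-0.85 ± 0.43, adjusted p = 0.163) did not pass, beside 14.5% higher and 10.4% lower. When only the libraries compared were fitted, all 9 were lower without cytokines at day 2 and at day 6, where 7267 and 7137 of all genes passed. Those gained were Prdm14 (adjusted p = 0.00151) and Fut9 (0.000181) at day 2, and Itgb3 (0.00491) and Fut9 (0.00644) at day 6. As a share of the PGCLC mean, in the order of these 3 conditions, Prdm1 stood at 17.4%, 27.1% and 24.8%, and Tfap2c at 61.7%, 48.6% and 49.9%. Kit stood at 18%, 11.7% and 23.8%, and Dnd1 at 22.4%, 22.8% and 11.4%. Without replicate 1 of the PGCLCs, 4 genes passed in each of the 3 comparisons. Those that then failed at day 2 with cytokines were Tfap2c at -0.44 (adjusted p = 0.333), Nanos3 at -0.89 (adjusted p = 0.267), Itgb3 at -1.35 (adjusted p = 0.129) and Fut9 at -1.34 (adjusted p = 0.133). At day 2 without cytokines they were Tfap2c at -0.80 (adjusted p = 0.0698), Nanos3 at -1.52 (adjusted p = 0.0554) and Itgb3 at -1.38 (adjusted p = 0.116), and at day 6 without cytokines Prdm14, Tfap2c at -0.76 (adjusted p = 0.0864) and Cxcr4 at -1.33 (adjusted p = 0.0557). Leaving out day 2 replicate 1 with cytokines left 3 genes and replicate 2 left 5, with Kit at -2.02 (adjusted p = 0.0548) in the former. Leaving out replicate 2 of day 6 without cytokines left 4, with Kit at -2.02 (adjusted p = 0.0608) and Cxcr4 at -1.20 (adjusted p = 0.0761). Prdm14 passed at day 6 without cytokines (-1.10 ± 0.34, adjusted p = 0.0268) but failed without any 1 of the 4 libraries, at -1.26 to -0.95, with adjusted p-values of 0.0572 to 0.174. Itgb3 likewise failed at day 2 with cytokines without any 1 library, at -1.78 to -1.25, with adjusted p-values of 0.0571 to 0.187. Without replicate 2 of the day 2 aggregates that had no cytokines, Tfap2c was -0.96 (adjusted p = 0.0561) and Itgb3 -1.24 (adjusted p = 0.171). In the order of day 2 with, day 2 without and day 6 without cytokines, the trophoblast markers summed to 4046 to 4447, 1593 to 2483 and 2080 to 2399, and the endoderm markers to 138 to 140.5, 163 to 202 and 327 to 463. Krt8 (3561 and 3186) made up most of the trophoblast sum at day 2 with cytokines. Neural markers summed to 553 to 725 (3 of 8 lower), 1470 to 1856 (3 of 8 higher) and 1825 to 2437 (3 of 8 higher), and 2 of 5 mesoderm markers tested were higher at day 2 without cytokines. Early PGC genes were lower in 5, 6 and 5 of 13 cases and higher in 1 in each condition. The part of these markers' cell types was not tested.

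**Figure D4:**
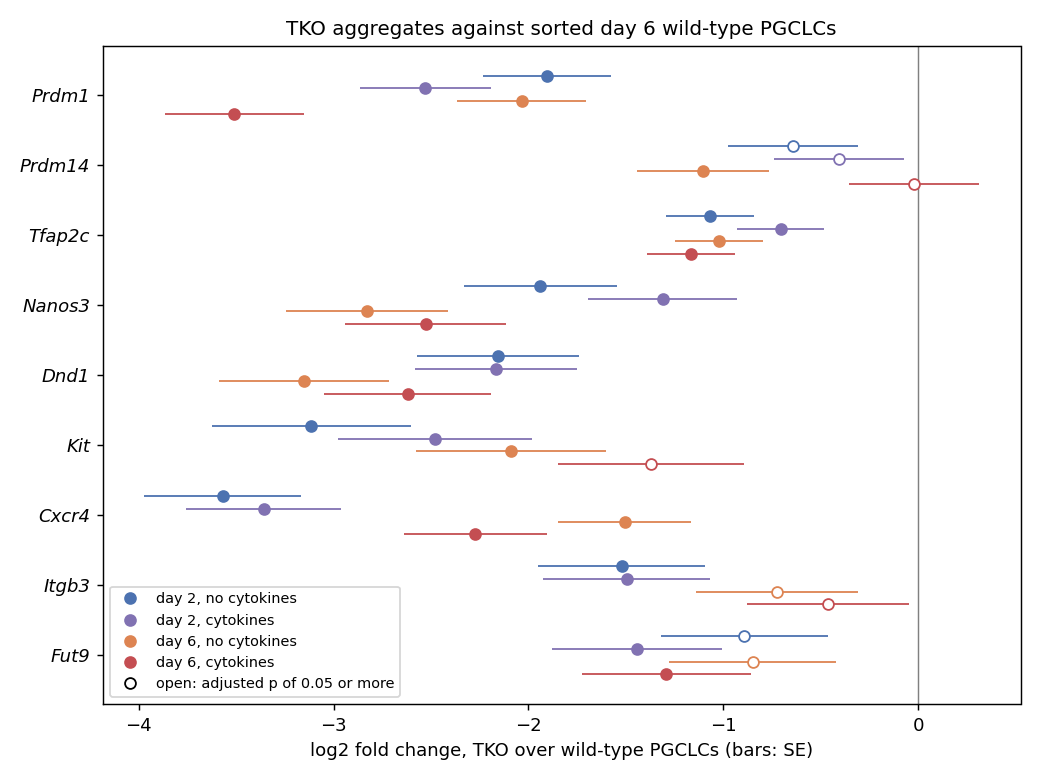
Log2 fold change of each gene in the 4 kinds of TKO aggregate over sorted day 6 wild-type PGCLCs, with SE as bars and open circles where the adjusted p was 0.05 or more; the 4 series share the PGCLC libraries. At day 6 with cytokines Prdm14 lies nearest to 0, at -0.02, and Prdm1 farthest from it, at -3.51.

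Ligands and partners of the members were read from a list of 10 ligands, receptors and surface partners. Between PGCLCs and wild-type day 6 aggregates without cytokines 4 of the 10 were higher and 2 lower, beside 29.6% and 28.6% of all genes (median log2 fold change 0.53), and between TKO and wild-type day 6 aggregates without cytokines 5 were higher and 2 lower, beside 28.5% and 26.9% of all genes (median 0.50). Between PGCLCs and wild-type EpiLCs 7 were higher and 1 lower, beside 22.4% and 18.2% of all genes (median 1.45). Kitl, which encodes the ligand of KIT, held 299 and 133 in wild-type day 6 aggregates without cytokines and 25.7 and 52.1 in sorted PGCLCs (-2.44 ± 0.48, adjusted p = 0.000475), the opposite direction to its receptor. Cxcl12, the ligand of CXCR4, was highest in wild-type EpiLCs (679.5 and 826) and day 2 aggregates (559.5 and 1649) and held 48.0 and 28.9 in the day 6 aggregates in which Cxcr4 peaked. In TKO aggregates Cxcl12 was lower with cytokines than without at day 2 (-2.08 ± 0.47, adjusted p = 0.0235) and at day 6 (-2.38 ± 0.50, adjusted p = 0.0131). Ackr3, a second receptor of CXCL12, was lower in PGCLCs than in those day 6 aggregates (-3.18 ± 0.47, adjusted p = 3.61e-05), like Cxcr4. Itgav, the partner chain of integrin β3, was higher in PGCLCs (0.84 ± 0.17, adjusted p = 0.000501) and in TKO day 6 aggregates (0.78 ± 0.17, adjusted p = 0.0011), and Itga2b, the partner used by platelets, held at most 71.2 normalised counts. Fut4, the other mouse enzyme able to make SSEA1, held 11.7 to 102 over all libraries and did not pass in either comparison, while B4galt1, a galactosyltransferase, was higher in both (2.86 ± 0.27 and 1.92 ± 0.27). The receptors of LIF, Lifr (2.11 ± 0.43) and Il6st (1.68 ± 0.20), were higher in PGCLCs.

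Of 7 protein partners of the members, 4 were higher and 1 lower in PGCLCs than in wild-type day 6 aggregates without cytokines (29.6% and 28.6% of all genes), and 3 were higher and 1 lower in TKO than in wild-type aggregates of that kind (28.5% and 26.9% of all genes). Cbfa2t2, the corepressor that binds PRDM14, was higher in PGCLCs than in EpiLCs (1.39 ± 0.23, adjusted p = 0.000266) and than in the aggregates without cytokines (0.98 ± 0.23, adjusted p = 0.00168). Its relative Cbfa2t3 was lower in PGCLCs than in those aggregates (-3.42 ± 0.50, adjusted p = 3.33e-05). Prmt5, an arginine methyltransferase that works with BLIMP1, was lower in PGCLCs than in EpiLCs (-1.50 ± 0.21, adjusted p = 8.38e-05). Of 8 paralogs of the members with enough counts, 3 were higher and 4 lower in PGCLCs than in those aggregates, beside the same shares of all genes. The AP-2 paralogs ran differently from Tfap2c: Tfap2b held 283 and 1566 normalised counts in wild-type day 6 aggregates without cytokines and 0.695 and 0.643 in PGCLCs, and Tfap2a held 317 and 418 and 23.6 and 48.3. In TKO aggregates Tfap2a was lower with cytokines at day 2 (-2.42 ± 0.33, adjusted p = 0.00129) and day 6 (-2.65 ± 0.33, adjusted p = 0.000635), where Tfap2c did not pass. Rbm46, an RNA-binding protein used in germ cells, was higher in PGCLCs than in EpiLCs (2.10 ± 0.47, adjusted p = 0.00254), and Nanos2, the paralog that acts later in male germ cells, held at most 10.4 normalised counts.

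Genes of the BMP and WNT signals that induce PGCs were lower rather than higher in PGCLCs when set against wild-type day 6 aggregates without cytokines, with 8 of 10 lower and 0 higher beside 28.6% and 29.6% of all genes. The day 6 aggregates were not alike in these genes: Id1 held 383 and 3000, Id3 495 and 4127 and Wnt3 53.0 and 722 normalised counts. The same 2 libraries differed in Itgb3 (44.9 and 6.95), Kit (1253 and 521) and Prdm1 (4.99 and 1.158). The 6 neural crest and melanocyte markers, a lineage that uses Kit, summed to 30.1 to 170.5 there, with no count of Tyr in either library and Dct at 0.453 and 2.32, and to 382 to 666 in sorted PGCLCs, most of it Foxd3 (201 and 373) and Mitf (142 and 208). In EpiLCs these markers summed to 1799 to 2627 (wild-type) and 635.5 to 1170 (TKO), where Kit held 116 and 176 and 68.5 and 211. Their part in the Kit level was not tested. The 6 endoderm markers summed to 9.26 to 73.9 in wild-type and 327 to 463 in TKO day 6 aggregates without cytokines, led by Gata4 (219.7 and 145 in TKO), and the 6 mesoderm markers to 227 to 287 and 1630 to 2279, nearly all of it Col1a1 (1556 and 2224 in TKO).

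The genes whose pattern over the 18 libraries was most like each member were taken by Pearson's r of log2 CPM among 14001 candidates, as a description, since the 18 libraries are pairs from 9 conditions. Prdm1 was most like Ifitm1 (r = 0.987), Tanc1 (r = 0.970) and Sgo2a (r = 0.960), and Ifitm1 is itself an early PGC gene. Genes most like Prdm14 included Slc15a1 (r = 0.981) and Esrrb (r = 0.981), of which Esrrb is a naive pluripotency factor, and Tfap2c was most like Zfp59 (r = 0.971), Slc15a1 (r = 0.968) and Prdm14 (r = 0.964). Nanos3 was most like Arid5b (r = 0.929), Urgcp (r = 0.928) and Lgals8 (r = 0.898), and Dnd1 most like Mtmr14 (r = 0.929), Nr1d2 (r = 0.925) and Cisd3 (r = 0.924). Kit was most like Neat1 (r = 0.932), Mok (r = 0.930) and Phf13 (r = 0.924), and Itgb3 most like Capn6 (r = 0.963), Plekhh1 (r = 0.951) and Fabp3 (r = 0.949). Cxcr4 was most like Tagln3 (r = 0.972), Bbs1 (r = 0.964) and Exoc3 (r = 0.963), of which Tagln3 is expressed in neurons, and Fut9 most like Erlin1 (r = 0.913), Ptbp3 (r = 0.910) and Trappc8 (r = 0.908). Among the members themselves, Prdm14 and Tfap2c had the highest r (0.964), followed by Tfap2c and Itgb3 (0.929) and Prdm14 and Itgb3 (0.903). Dnd1 was closest to Prdm1 (0.792), and Cxcr4 had values from -0.475 with Dnd1 to 0.491 with Kit.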

How the data were processed

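Total RNA of mouse E14Tg2a-derived cells was depleted of rRNA and sequenced as 18 libraries (9 conditions, 2 replicates). Per the submitters' notes and the file headers, the authors trimmed reads with Trim Galore 0.5.0 and cutadapt 1.16, aligned them to mm10 with STAR 2.7.1a and deposited raw counts per gene from Subread 1.5.2 (featureCounts) over refGene exons, with no strand option and without reads that hit several genes or sites. The deposited file also holds 33 note rows, which were left out.

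From these counts, edgeR 4.0.16 (R 4.3.3) was run with TMM factors, filterByExpr and 1 quasi-likelihood model of the 9 group means. P-values were adjusted by Benjamini-Hochberg over the 16582 genes tested, and a gene passed at an adjusted p below 0.05. SE is the log2 fold change divided by the root of its F statistic. Levels are counts divided by DESeq2 1.42.0 size factors, not scaled by length, so they are compared within a gene. Likeness used log2 CPM (prior count 2) among genes with a mean CPM of 1 or more. With 2 replicates a group, p-values rest on the spread pooled over conditions. Replicates lay furthest apart in wild-type day 6 aggregates without cytokines (chi-square per degree of freedom 156, beside 10.2 to 53.2 elsewhere). SE and p-values of comparisons with them may therefore be too small. With only the libraries compared, calls over all genes fell from 9659 to 6547 (PGCLCs) and 9188 to 5784 (TKO aggregates) against them. The members that passed stayed at 9 and 7.

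The 9 genes and the lists were chosen with earlier results of these data known. Besides the 9 genes, Tet1 to Tet3, the 3 genes most like each member, and list genes that passed or are a ligand, partner, paralog or marker are named. One gene that this rule would name is not reported here. Neighbours (Wdr55, Mir181c, Mir181d) were added after the annotation was read.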

Additional observations from a re-analysis of the deposited data

Results flagged for a closer look

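The effect of cytokines at day 6 (with minus without, wild-type minus TKO, log2 scale) differed between the genotypes for all 9 genes by the interaction test. The difference was 10.39 for Prdm1, 8.36 for Prdm14, 6.57 for Tfap2c, 5.16 for Dnd1, 3.86 for Itgb3, 2.92 for Fut9, 2.31 for Kit, 1.76 for Nanos3 and -2.55 for Cxcr4. For Prdm1 and Prdm14 its size is uncertain, given their few raw counts in wild-type aggregates without cytokines. The wild-type cells with cytokines were sorted and the TKO aggregates were not, and the sort and the genotype cannot be told apart here.

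The change from EpiLCs to day 2 without cytokines also differed between the genotypes, by 3.79 for Tfap2c and 3.31 for Prdm1 (TKO minus wild-type, log2 scale). The day 2 samples were whole aggregates in both genotypes.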

How the results depend on the processing

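No passed value of the 9 genes changed sign: of 96 such values, 96 passed with DESeq2 and 96 with no filter on low counts, and 95 with RLE factors or a minimum of 1 CPM, 91 with library size alone, 94 with library size without the rRNA gene Rn45s 92 when only the libraries compared were fitted, 82 at an adjusted p below 0.01 and 75 at a log2 fold change beyond 2. Of 428 values with 1 library left out, 368 passed. Among the moves in the number of genes that passed were the following. TKO against wild-type EpiLCs gave 1 in place of 2 when only the libraries compared were fitted, at an adjusted p below 0.01 and at a log2 fold change over 2, and 3 with library size alone. Against PGCLCs, TKO aggregates at day 2 with cytokines gave 4 in place of 8 at an adjusted p below 0.01 and 4 at the fold limit, those at day 2 without gave 3 in place of 7 and those at day 6 without gave 4 in place of 7 at the fold limit. Both kinds without cytokines gave 5 with library size alone and 9 with only the libraries compared. Those at day 6 with cytokines gave, in place of 6, 4 at the fold limit and 5 at an adjusted p below 0.01. They also gave 5 with RLE factors, a minimum of 1 CPM or library size without Rn45s, and 7 with no filter, library size alone or only the libraries compared. Cytokines in TKO aggregates gave 1 in place of 0 at day 2 with library size alone, and at day 6, in place of 1, 2 with DESeq2, no filter, library size alone or only the libraries compared and 0 under both stricter thresholds. From day 2 to day 6, TKO aggregates with cytokines gave 2 in place of 0 with no filter or only the libraries compared, and those without gave, in place of 1, 0 with library size alone, without Rn45s or at an adjusted p below 0.01 and 5 with only the libraries compared. The causes were not tested.

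With 1 library left out, the genes that passed numbered 9 to 9 for PGCLCs against wild-type EpiLCs and against day 6 aggregates, 2 to 4 for wild-type day 2 against EpiLCs, 4 to 5 for wild-type day 6 against day 2, 1 to 2 for TKO against wild-type EpiLCs, 5 to 6 at day 2 and 6 to 8 at day 6 without cytokines and 4 to 6 at day 6 with cytokines. They numbered 3 to 6, 4 to 7 and 4 to 6 for the other TKO aggregates against PGCLCs (day 2 with, day 2 without and day 6 without cytokines), 0 to 1 for cytokines in TKO at day 6, 6 to 6 and 5 to 7 for TKO day 2 with and without cytokines against EpiLCs, 0 to 0 for TKO day 6 against day 2 without cytokines, 8 to 9 for the interaction with cytokines and 2 to 2 for that with time.

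Replicate numbers did not pair the samples: deviations of same-numbered libraries correlated at -0.156 to 0.182 over 36 pairs of conditions, 7 of them over 0.1. With a replicate block 96 of 96 passed values still passed, and Fut9 in TKO day 2 aggregates without cytokines against TKO EpiLCs also did (1.35, adjusted p = 0.0457).

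Library size alone put the median log2 fold change of all genes at -0.489 to 0.589 over the comparisons, against -0.032 to 0.074 with TMM factors, and moved the share of higher among all calls from 55.2% to 78.2% (PGCLCs against EpiLCs), 50.9% to 38.4% (against day 6 aggregates), 54.2% to 86.1% (wild-type day 2 against EpiLCs), 70.4% to 93.1% and 54.8% to 72.9% (TKO against wild-type EpiLCs and day 2 aggregates), 54% to 87.8% and 58.1% to 92.6% (TKO day 2 and day 6 without cytokines against PGCLCs), 45.4% to 3.61% and 45.6% to 3.36% (cytokines in TKO at days 2 and 6) and 54.3% to 94.6% (TKO day 2 without cytokines against EpiLCs). Depth limits the values of conditions with few counts: Prdm14 had 3 over both wild-type EpiLC libraries, Cxcr4 7 over both TKO EpiLC libraries, and Nanos3 in wild-type EpiLCs and day 2 aggregates and both Prdm1 and Prdm14 in wild-type day 6 aggregates without cytokines were also low.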
